A study of Mus musculus with 37 samples.

Results

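The response of wild-type mature luminal cells to estradiol (E2) was read from 6 of the 37 libraries of the series, 3 titled WT with E2 and 3 titled WT with placebo, chosen by title alone. Both groups carried WT Esr1, the gene of estrogen receptor alpha, and the mice of both were raised to 8 weeks, ovariectomized and left with a pellet for 8 days. The groups therefore differed in the pellet, which held E2 in the first group and placebo in the second, and both lacked the hormones of the ovary. Mature luminal cells were sorted from the mammary glands by flow cytometry and their RNA was sequenced. The sources used here do not state the surface markers of the sort, the dose of E2 or the number of mice per library. The remaining 31 libraries held cells given P4 or both hormones and cells with a D542G or Y541S receptor; 12 of them, the E2 and placebo libraries of the mutants, gave a comparison of responses, and all 37 entered the shared estimate of spread.

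The luminal layer of the mouse mammary gland holds cells with estrogen and progesterone receptors and cells without them. Estrogen receptor alpha is a transcription factor that binds E2 in the receptor-positive cells, often called mature luminal or hormone-sensing cells, beside partner factors such as FOXA1 and GATA3. These cells pass the hormone's message on to their neighbours through secreted factors such as amphiregulin, WNT4 and RANK ligand. The receptor-negative cells include luminal progenitors, marked by ELF5 and KIT, which give rise to the milk-secreting alveolar cells.

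Total counts of the 6 libraries were 33.46 M to 47.22 M, with 18756 to 20137 genes detected by 1 count or more. Levels are counts scaled by library total and composition, in CPM, and are given for the libraries in the order of their numbers, 1 to 3. The spans of Fgfr2, C1s1, Ccn2, Cry2, Mt2, Lamb3, Rtp4 and Gata3, named below, lie over parts of other annotated genes, and the use of strand in counting was not given in the sources used here, so their levels are uncertain. Differences are log2 fold changes of E2 over placebo ± SE, and calls rest on p-values from edgeR, adjusted over the 18426 tested genes by Benjamini-Hochberg, with 0.05 as the threshold. The design text calls the libraries biological replicates but no label ties them to separate animals. The p-values therefore set each difference against the spread between libraries of a group, which need not be that between animals. That spread was estimated over all libraries of the series, not from the WT E2 and WT placebo libraries alone.

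A pair of libraries stood apart. Markers of basal and myoepithelial cells summed to 238, 140 and 126 CPM in the E2 libraries and to 59.0, 914 and 87.6 CPM in the placebo libraries, so WT placebo 2 held most. The sum of fibroblast markers was also highest there, at 112, 98.0 and 141 CPM in the E2 libraries and 90.1, 289.6 and 42.0 CPM in the placebo libraries. Dcn alone made 268.8 CPM of it in WT placebo 2, and every other fibroblast marker was highest in an E2 library. The hair keratin gene Krt35 was at 0.0206, 0.181 and 0.0449 CPM under E2 and 0.183, 757 and 0.196 CPM under placebo. Leukocyte markers summed to 133, 27.8 and 26.6 CPM in the E2 libraries and to 4.15, 5.03 and 3.09 CPM in the placebo libraries, so WT E2 1 held most. Where a result rests on either library, its value without that library is given.

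The sort was checked with marker genes of mammary cell types. General luminal markers, such as the keratins of simple epithelium, summed to 20006 to 29157 CPM in the E2 libraries and 16464 to 22505 CPM in the placebo libraries, with 1 of 6 called higher. Markers of hormone-sensing luminal cells summed to 1394 to 2246 CPM in the E2 libraries and 6364 to 9298 CPM in the placebo libraries, and 9 of 9 were called lower. Markers of luminal progenitors and alveolar cells summed to 11216 to 39831 CPM in the E2 libraries and 3043 to 3672 CPM in the placebo libraries, and 7 of 8 tested were called higher, while Csn3 was at 0 in every library. The placebo libraries thus carried the markers of the labelled cell type at high level, and the E2 libraries carried luminal markers with those of the progenitor class raised. In bulk RNA, fewer cells of a type and less RNA per cell cannot be told apart, which touches every result below.

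E2 changed a large share of the transcriptome. Of the 18426 genes tested, 2873 (15.6%) were called higher and 2923 (15.9%) lower, 5796 (31.5%) in either direction. The counts of list and family members below are to be read against these shares. The median log2 fold change over all tested genes was 0.031, which the scaling of the libraries holds near 0. Of the called genes, 2415 differed by less than 2-fold, 1729 by 2-fold to under 4-fold, 1093 by 4-fold to under 16-fold and 559 by 16-fold or more. The E2 and placebo libraries did not overlap for 7207 of the 18426 tested genes. Among the called genes this held for 5175 (89.3%), a share that the call itself favours. Of the called genes, 3392 (58.5%) were called whichever of the 6 libraries was left out. With the spread estimated from these 6 libraries alone rather than from all 37, 1450 were called higher and 1689 lower. Protein-coding genes were called higher in 2582 and lower in 2644 of 15031 cases. Long intergenic noncoding genes were called higher in 63 and lower in 83 of 864 cases.

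**Figure D1:**
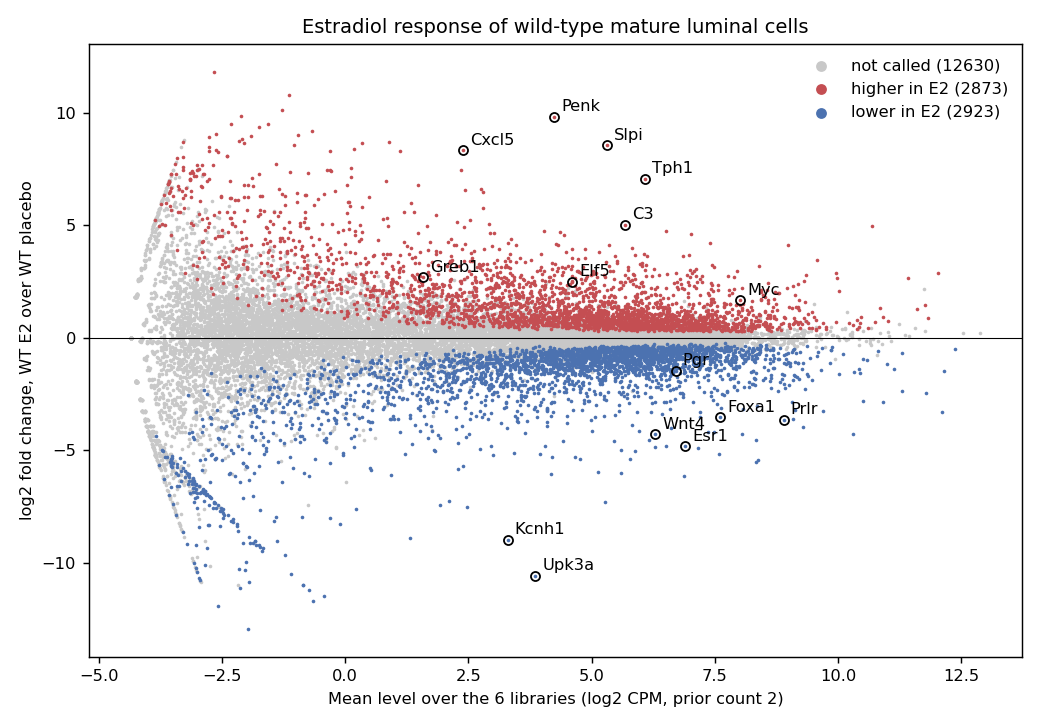
Log2 fold change of WT E2 over WT placebo (y axis) against the mean level over the 6 libraries (x axis, log2 CPM), 1 point per tested gene. The 2873 genes called higher and 2923 called lower spread over the whole range of levels, with Penk and Slpi at the top and Upk3a and Kcnh1 at the bottom among well-expressed genes.

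Among genes with a mean of at least 2 log2 CPM and no overlap between the groups, the largest rise was that of Penk, which encodes preproenkephalin, the precursor of the enkephalin opioid peptides. Penk was at 746, 431 and 489 CPM in the E2 libraries and 0.470, 0.587 and 0.786 CPM in the placebo libraries. Penk thus differed by 9.82 ± 1.29 on the log2 scale (adjusted p = 1.76e-06). Every placebo library held under 1 CPM. Slpi encodes a secreted inhibitor of leukocyte proteases that also acts against microbes. Slpi was at 443, 728 and 1276 CPM in the E2 libraries and 2.43, 2.55 and 1.43 CPM in the placebo libraries. Slpi had a log2 fold change of 8.57 ± 1.004 (adjusted p = 3.2e-07). Tph1 encodes tryptophan hydroxylase, the rate-limiting enzyme of serotonin synthesis outside the brain. Tph1 was at 575, 551 and 1352 CPM in the E2 libraries and 7.36, 4.39 and 6.68 CPM in the placebo libraries. The difference for Tph1 was 7.07 ± 0.81 (adjusted p = 2.22e-07). In all 3 genes the lowest E2 library lay far above the highest placebo library. Further members of the 15 largest rises were Krt77, an epidermal type keratin (7.44 ± 1.30), Ifi27l2a, an interferon-induced gene (6.60 ± 0.82), Ccn2, a secreted matricellular protein (5.08 ± 1.01), and Fam167a (4.92 ± 0.82).

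The largest fall was that of Upk3a, which encodes a uroplakin, a membrane protein of the urothelial surface. Upk3a was at 0.760, 0.181 and 0.202 CPM in the E2 libraries and 699, 361 and 779 CPM in the placebo libraries. Upk3a thus differed by -10.58 ± 1.45 on the log2 scale (adjusted p = 2.94e-06). Each E2 library held under 1 CPM of it. Kcnh1 encodes a voltage-gated potassium channel. Kcnh1 was at 0.637, 0.393 and 0.247 CPM in the E2 libraries and 205, 272 and 176 CPM in the placebo libraries. Kcnh1 had a log2 fold change of -8.97 ± 1.02 (adjusted p = 2.01e-07). Other large falls were those of Zfp979, a zinc finger gene (-7.26 ± 1.36), Col8a1, a network-forming collagen chain (-6.14 ± 0.58), Abcc8, the sulfonylurea receptor subunit of ATP-sensitive potassium channels (-6.06 ± 0.60), Clip4 (-5.96 ± 0.48) and Cntfr, the ligand-binding receptor chain for ciliary neurotrophic factor (-5.68 ± 0.96). The fibrinogen chain genes Fgb and Fgg, best known from the liver, fell together. Fgb was at 11.9, 32.4 and 136 CPM in the E2 libraries and 3005, 2941 and 2325 CPM in the placebo libraries. Fgg was at 18.8, 28.5 and 138 CPM in the E2 libraries and 2464, 3155 and 2388 CPM in the placebo libraries. The log2 fold change was -5.52 ± 1.18 for Fgb and -5.43 ± 1.08 for Fgg, and WT E2 3 was the E2 library with most of both. Fam25c changed by -5.37 ± 0.71, and 1810010D01Rik, whose span lies wholly over other annotated genes, by -5.99 ± 1.04.

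Among the 10 smallest p were also genes with smaller changes. Colgalt1, a collagen galactosyltransferase, was at 389, 403 and 339 CPM under E2 and 134, 123 and 147 CPM under placebo. Prkcd, protein kinase C delta, rose by 1.502 ± 0.11, and Mapkapk3, a kinase downstream of p38, by 2.31 ± 0.19. Ctnnbl1, a splicing-associated protein, was at 112, 107 and 96.9 CPM under E2 and 376, 363 and 387 CPM under placebo. Zfp664, a zinc finger gene, changed by -2.31 ± 0.18 and Tmem123, a transmembrane protein, by -1.70 ± 0.14. For these 6 genes, picked by their small p, the groups did not overlap and the call held whichever library was left out.

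**Figure D2:**
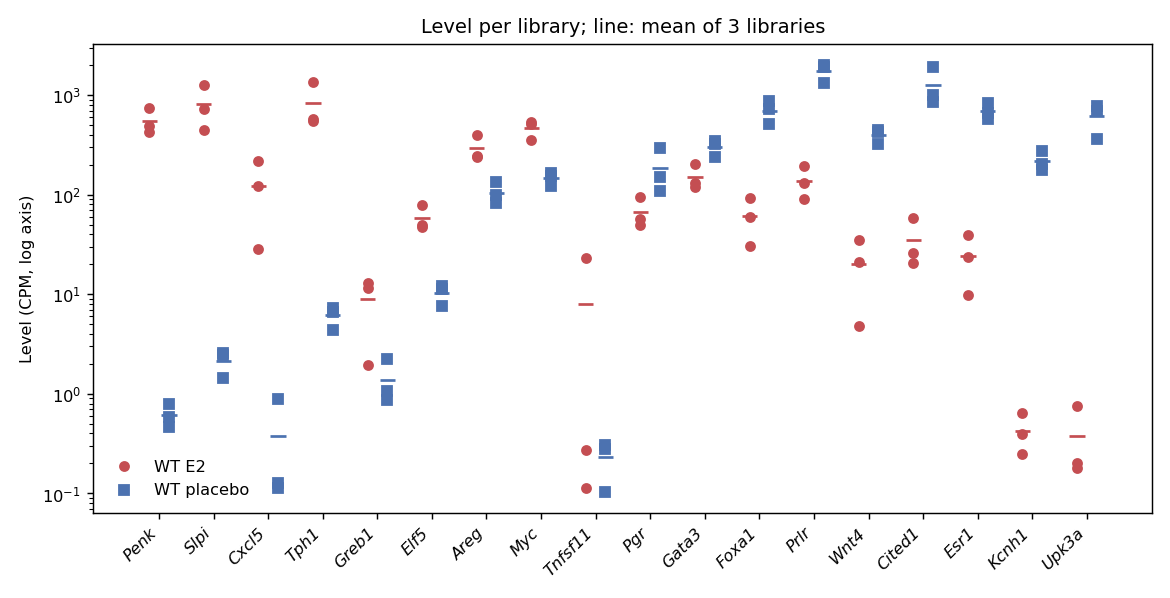
Level of 18 genes in each library (CPM, log axis), with circles for WT E2 on the left and squares for WT placebo on the right of each gene, and lines at the mean of 3 libraries. The groups do not overlap for Penk, Slpi, Esr1 or Upk3a, whereas Greb1 overlaps through WT E2 2 and Tnfsf11 is raised in WT E2 1 alone.

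The estrogen receptor gene and several of its partners were lower under E2. Of 20 tested genes for estrogen and progesterone receptors and their cofactors, 10 were called lower and 2 higher. Esr1 was at 23.7, 9.73 and 39.4 CPM in the E2 libraries and 654, 579 and 831 CPM in the placebo libraries. As a log2 fold change, Esr1 moved by -4.82 ± 0.39 (adjusted p = 1.73e-09). All 3 E2 libraries lay far below all 3 placebo libraries. Foxa1 encodes the pioneer factor that opens chromatin for the receptor. Foxa1 was at 59.3, 30.2 and 92.2 CPM in the E2 libraries and 722, 509 and 865 CPM in the placebo libraries. Foxa1 thus differed by -3.53 ± 0.47 on the log2 scale (adjusted p = 1.81e-06). Cited1, a transcriptional coactivator of the receptor in mammary gland, changed by -5.16 ± 0.55, and Tbx3, a T-box repressor, by -3.54 ± 0.33. Gata3, the luminal fate factor, was at 120.3, 130.5 and 202 CPM under E2 and 326, 239 and 344 CPM under placebo. Gata3 had a log2 fold change of -1.01 ± 0.26 (adjusted p = 0.00398). The corepressor gene Ncor1 changed by -0.85 ± 0.18. Pgr, the progesterone receptor gene and a classical target induced by E2 in many tissues, was lower here. Pgr was at 57.1, 49.8 and 94.1 CPM in the E2 libraries and 294, 108 and 150.2 CPM in the placebo libraries. The difference for Pgr was -1.46 ± 0.37 (adjusted p = 0.00326). The groups did not overlap, but without WT placebo 1, the highest library, the difference was -0.95 and the adjusted p 0.0645.

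Greb1, a classical target of the receptor, moved the other way. Greb1 was at 13.1, 1.97 and 11.5 CPM in the E2 libraries and 2.22, 0.868 and 1.07 CPM in the placebo libraries. Greb1 thus differed by 2.68 ± 0.54 on the log2 scale (adjusted p = 0.00033). WT E2 2 lay within the placebo range and the other E2 libraries above it. Among 29 other nuclear receptors, 12 were called lower and 4 higher (1 higher without WT placebo 1 or WT placebo 3). Esrrg, an orphan estrogen-related receptor, changed by -4.83 ± 0.56, Pparg, the receptor of adipocyte and alveolar lipid synthesis, by -4.25 ± 0.74, Nr3c2, the mineralocorticoid receptor, by -2.88 ± 0.42, and Nr2f2, the orphan receptor COUP-TFII, by -2.01 ± 0.28. Esrrb, a paralogue of Esrrg, rose by 2.75 ± 0.51.

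Transcription factors and surface markers of luminal progenitors and alveolar cells were mostly higher, 9 of 17 tested, with 1 lower. Elf5, the factor that drives alveolar fate, was at 49.9, 79.1 and 46.98 CPM under E2 and 12.2, 7.61 and 11.4 CPM under placebo. Elf5 had a log2 fold change of 2.495 ± 0.46 (adjusted p = 0.000133). Ehf, another ETS-family epithelial factor, rose by 2.497 ± 0.45, Sox10 by 3.07 ± 0.62, Aldh1a3, an aldehyde dehydrogenase of progenitors, by 2.54 ± 0.52, and Itga2, the collagen-binding integrin CD49b, by 1.65 ± 0.40. Cd14, the lipopolysaccharide co-receptor that marks progenitors, was at 981, 4038 and 3179 CPM under E2 and 291, 234 and 223 CPM under placebo. Lcn2, the iron-sequestering lipocalin, was at 1129, 3959 and 3596 CPM under E2 and 453, 329 and 394 CPM under placebo. For both, WT E2 1 was the lowest E2 library and still above every placebo library. Sox9, a progenitor factor, went the other way at -1.38 ± 0.25. Ltf, lactoferrin, was at 1366, 13469.9 and 11678 CPM under E2 and 1913, 1765 and 2238 CPM under placebo, so WT E2 1 fell below the placebo libraries and the gene was not called (adjusted p = 0.0579).

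Genes of milk and milk fat secretion were called higher in 9 of 16 tested cases and lower in 0, also 0 at an unadjusted p under 0.05 in edgeR and 0 by DESeq2. Mfge8, the milk fat globule protein that bridges membranes, was at 3960.03, 8906 and 8522 CPM under E2 and 1323, 983 and 1069 CPM under placebo. As a log2 fold change, Mfge8 moved by 2.66 ± 0.31 (adjusted p = 3.13e-07). Plin2, the coat protein of lipid droplets, rose by 2.71 ± 0.33, Xdh, xanthine dehydrogenase of the milk fat globule membrane, by 1.91 ± 0.37, Cel, a bile salt-dependent lipase of milk, by 4.37 ± 0.64, and Muc1, a surface mucin, by 2.12 ± 0.49. The casein gene Csn1s2b stayed under 2 CPM in every library, at 1.69, 1.75 and 0.583 CPM under E2 and 0.0522, 0.0255 and 0 CPM under placebo. In the prolactin and STAT5 pathway 4 of 13 genes were called higher and 2 lower. Prlr, the prolactin receptor, was at 132, 89.6 and 194 CPM under E2 and 1991, 1331 and 1902 CPM under placebo. Prlr thus differed by -3.65 ± 0.37 on the log2 scale (adjusted p = 3.43e-08). Socs3, a feedback inhibitor of cytokine signalling, was at 139, 149.6 and 187 CPM under E2 and 2652, 1988 and 2868 CPM under placebo. Socs2 and Cish, also feedback inhibitors downstream of STAT5, rose, by 3.13 ± 0.47 and 1.57 ± 0.34.

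The secreted factors through which hormone-sensing cells are known to act did not move together. Areg, amphiregulin, a ligand of the epidermal growth factor receptor, was at 239.5, 244 and 398 CPM under E2 and 133, 98.9 and 83.3 CPM under placebo. Areg had a log2 fold change of 1.48 ± 0.47 (adjusted p = 0.0167). Its groups did not overlap, but the call was lost without WT E2 3 (log2 fold change 1.20, adjusted p = 0.0757) and without WT placebo 3 (1.34, adjusted p = 0.0758). Wnt4, a paracrine Wnt ligand, was at 34.998, 4.84 and 20.997 CPM under E2 and 449, 320.4 and 427 CPM under placebo. The difference for Wnt4 was -4.29 ± 0.62 (adjusted p = 5.69e-06). Tnfsf11, RANK ligand, was at 23.4, 0.272 and 0.112 CPM under E2 and 0.104, 0.281 and 0.309 CPM under placebo. WT E2 1 alone was high, and the other E2 libraries lay within the placebo range. The log2 fold change of Tnfsf11 was 5.10 ± 1.34 with that library and -0.33 without it (adjusted p = 0.911). Tnfrsf11b, osteoprotegerin, a soluble decoy for RANK ligand, was higher by 4.36 ± 0.96. Of 15 genes for RANK ligand, its receptors and NF-kB, 5 were called higher and 0 lower, also 0 at an unadjusted p under 0.05 in edgeR and 0 by DESeq2.

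Among 27 genes of the EGF family, 5 (18.5%) were called higher and 6 (22.2%) lower (3 higher without WT placebo 3), against 15.6% and 15.9% of all genes. Hbegf, a ligand, rose by 2.07 ± 0.36, Nrg4, a neuregulin ligand, fell by 4.997 on the log2 scale, and the receptor genes Erbb2 and Erbb3 changed by -1.33 ± 0.25 and -1.42 ± 0.22. Of 37 Wnt genes, 6 (16.2%) were called higher and 9 (24.3%) lower. Wnt5b, a ligand, was at 432, 639 and 554 CPM under E2 and 67.6, 41.5 and 75.9 CPM under placebo. Rspo1, R-spondin 1, which strengthens Wnt signals at LGR receptors, was at 236, 27.995 and 19.3 CPM under E2 and 0.522, 0.690 and 1.94 CPM under placebo, highest in WT E2 1 and above the placebo range in all 3. The Wnt co-receptor genes Lrp5 and Lrp6 changed by -1.42 ± 0.23 and -1.04 ± 0.17, and Wnt11 by -2.29 ± 0.38.

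In the TGF-beta superfamily 4 of 36 genes were called higher and 5 lower, both shares below those of all genes. Of the ligand genes, Tgfb2 rose by 4.17 ± 0.61 and Tgfb3 by 2.21 ± 0.28, and Inhbb, which encodes an activin subunit, changed by -1.87 ± 0.29. The receptor genes Tgfbr2 and Bmpr1a changed by -2.38 ± 0.22 and -1.09 ± 0.19. Fgfr2, an FGF receptor needed for mammary bud growth, gave the smallest p of the FGF list. Fgfr2 was at 294, 277 and 229.6 CPM in the E2 libraries and 2510.5, 2367 and 2851 CPM in the placebo libraries. Fgfr2 thus differed by -3.27 ± 0.18 on the log2 scale (adjusted p = 1.55e-12). Among Notch genes, Jag1, a ligand, changed by -2.73 ± 0.45 and Hes1, a target, by -1.66 ± 0.20, whereas the target Heyl rose by 2.81 ± 0.59. Jag2, a ligand, changed by -9.05 ± 1.96, and by -4.13 without WT placebo 2, the only one of the 6 libraries over 1 CPM. In IGF and insulin signalling, Grb10 rose by 2.52 ± 0.44 and its paralogue Grb14 changed by -2.79 ± 0.43, both adaptors that bind insulin-type receptors.

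Of 30 genes for neuropeptides, hormones and their processing, 5 were called higher, Penk among them, and 1 lower (2 lower without WT E2 2, WT E2 3 or WT placebo 1). Cpe, carboxypeptidase E, which trims prohormones, was at 45.9, 143 and 103 CPM under E2 and 8.88, 15.2 and 13.2 CPM under placebo. Tac1, the precursor of substance P, rose by 3.14 ± 0.75, and Stc2, stanniocalcin 2, changed by -1.06 ± 0.28. In the serotonin and tryptophan list Tph1 was the single member of 14 called higher, with 2 called without WT E2 3, and 4 were called lower. Kynu, kynureninase, and Ido2, a tryptophan dioxygenase, were low throughout the E2 libraries, at 0.0206, 0 and 0.404 CPM under E2 and 7.76, 1.86 and 11.4 CPM under placebo for Kynu and 0.0206, 0 and 0.0224 CPM under E2 and 0.653, 0.638 and 0.477 CPM under placebo for Ido2. Ptges, prostaglandin E synthase, was at 229, 297 and 298 CPM under E2 and 48.3, 41.96 and 45.05 CPM under placebo. Ptgs1, the constitutive cyclooxygenase, rose by 2.73 ± 0.49 and Ptgs2, the inducible cyclooxygenase, by 3.502 ± 0.80. Hpgd, which degrades prostaglandins, rose as well, by 2.46 ± 0.52. These 4 enzyme genes belong to a list of 23 tested genes, otherwise receptors for adrenergic, adenosine, purine and prostaglandin ligands, of which 7 were called higher, the 4 enzymes among them, and 4 lower (2 lower without WT placebo 1). The adrenergic receptor gene Adra2a fell by 7.51 on the log2 scale, and Adrb1 by 3.62, with under 3 CPM of either in each E2 library.

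Of 19 chemokine genes tested, 12 were called higher and 0 lower, with 1 lower at an unadjusted p under 0.05 in edgeR and 1 by DESeq2, and the median log2 fold change of the list was 3.20. The lower count was 1 without WT placebo 1 or WT placebo 3. Cxcl5, a neutrophil attractant, was at 28.3, 121 and 219 CPM under E2 and 0.888, 0.128 and 0.112 CPM under placebo. Cxcl5 had a log2 fold change of 8.33 ± 1.15 (adjusted p = 3.18e-06). Ccl5, Ccl9 and Cxcl9, attractants of T cells and myeloid cells, rose by 5.15 ± 0.78, 7.44 ± 1.58 and 3.67 ± 0.76, and Cxcl16 by 1.51 ± 0.24. The homeostatic epithelial chemokine Cx3cl1 was at 504, 699.6 and 702 CPM under E2 and 478, 436 and 527 CPM under placebo and was not called. Colony-stimulating factors rose too. Csf3, the granulocyte factor, was at 103, 309 and 311 CPM under E2 and 15.98, 16.3 and 12.7 CPM under placebo. Csf1, the macrophage factor, was at 633, 235 and 420.4 CPM under E2 and 26.5, 33.1 and 43.9 CPM under placebo. Lif rose by 2.497 ± 0.36, and Il13ra1, a receptor chain for interleukin 13, changed by -1.78 ± 0.21.

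Leukocyte markers moved with these genes. Of the 9 tested, 4 were called higher, with summed levels of 26.6 to 133 CPM in the E2 libraries and 3.09 to 5.03 CPM in the placebo libraries, while Itgam was at 0 in every library. Their part in the chemokine, MHC class II and complement results was not tested. Of the E2 libraries, WT E2 1, which held most leukocyte markers, was lowest for Csf3 and Cxcl5 and highest for Csf1 and C3, and without it the chemokine list had 13 members called higher.

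Secreted defence proteins were called higher in 13 of 30 tested cases and lower in 2. Beside Slpi and Lcn2 these included Wfdc18, a whey acidic protein-type inhibitor, at 5996, 15802 and 7325 CPM under E2 and 351, 257 and 333 CPM under placebo, and Wfdc3 at 15.02, 92.03 and 39.2 CPM under E2 and 3.60, 1.46 and 2.92 CPM under placebo. Lbp, lipopolysaccharide-binding protein, was at 78.2, 139.9 and 128 CPM under E2 and 7.08, 1.46 and 4.72 CPM under placebo. Serpinb5, maspin, rose by 1.63 ± 0.25. Lyz2, a lysozyme of myeloid cells and itself on the leukocyte list, was at 98.4, 22.1 and 11.7 CPM under E2 and 0.653, 1.69 and 1.15 CPM under placebo, highest in WT E2 1. Of 24 complement and coagulation genes, 7 were called higher and 2 lower. C3, the central complement component, was at 533, 179 and 233 CPM under E2 and 7.60, 7.02 and 14.6 CPM under placebo. As a log2 fold change, C3 moved by 5.02 ± 0.47 (adjusted p = 1.56e-08). The genes of the complement proteases C1r and C1s were lower, with C1ra at -3.71 ± 0.49 and C1s1 at -4.68 ± 0.79, and C1qa, largely made by macrophages, was higher by 4.71 ± 1.08. Plaur, the urokinase receptor, rose by 2.99 ± 0.45.

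Interferon-stimulated genes were called higher in 21 of 36 cases and lower in 0, with 0 lower at an unadjusted p under 0.05 in edgeR and 0 by DESeq2, and the list's median log2 fold change was 1.43. Ifit1, which binds viral RNA, was at 26.3, 122 and 142 CPM under E2 and 4.83, 3.35 and 2.50 CPM under placebo. Ifit1 thus differed by 4.76 ± 0.57 on the log2 scale (adjusted p = 5.27e-07). Isg15, a ubiquitin-like modifier, was at 17.1, 75.6 and 43.6 CPM under E2 and 6.48, 5.29 and 5.47 CPM under placebo. Rtp4, an interferon-induced chaperone of receptors, was at 54.5, 290.1 and 159 CPM under E2 and 19.9, 26.2 and 27.7 CPM under placebo. In each of these 3 genes WT E2 1 was the lowest E2 library and still above all placebo libraries. The list's mean level was 3.51, 5.0 and 4.78 log2 CPM in the E2 libraries and 3.00, 2.79 and 3.02 log2 CPM in the placebo libraries. Ifit3 and Ifit3b are near-identical copies whose reads may be shared, and both were higher, by 5.97 ± 0.75 and 6.02 ± 0.90. Of 22 listed genes known for induction by interferon gamma, 11 did not pass the filter on low counts. Genes at 0 in every library also fall in that class, and 0 was not read as absence. Of the 11 tested, 3 were called higher and 1 lower. Irgm1, an immunity GTPase, rose by 1.39 ± 0.24 and Gbp3, a guanylate-binding protein, by 2.31 ± 0.52. Irf1, the factor that relays interferon gamma, was lower at 135, 91.2 and 98.7 CPM under E2 and 342, 287 and 316 CPM under placebo. Irf1 had a log2 fold change of -1.54 ± 0.17 (adjusted p = 1.05e-07).

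Upstream sequence was read in windows, the 250 bases before the annotated start in RefSeq on GRCm38.p6. Of 12672 tested genes with a window, 3.24% held the core of the interferon-stimulated response element on either strand, searched as GAAA, 2 free bases and GAAA. Of the 24 interferon-list genes with a window, 11 (45.8%) held it. The share was 3.36% of 2082 windowed genes called higher and 2.83% of 2193 called lower. These 3 windows, shown because Ifit1, Ifit3 and Isg15 are called members of the list that hold the element, carry the matches in capitals; the element reads as its reverse complement in Ifit1 and Ifit3, and in Isg15 the 3 matches overlap.
Ifit1, chr19:34640639-34640888, plus strand: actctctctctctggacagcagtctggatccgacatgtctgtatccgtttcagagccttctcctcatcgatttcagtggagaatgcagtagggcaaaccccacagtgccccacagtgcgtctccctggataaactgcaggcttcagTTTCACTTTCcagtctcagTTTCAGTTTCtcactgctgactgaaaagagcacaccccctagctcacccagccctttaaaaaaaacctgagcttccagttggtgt
Ifit3, chr19:34583279-34583528, plus strand: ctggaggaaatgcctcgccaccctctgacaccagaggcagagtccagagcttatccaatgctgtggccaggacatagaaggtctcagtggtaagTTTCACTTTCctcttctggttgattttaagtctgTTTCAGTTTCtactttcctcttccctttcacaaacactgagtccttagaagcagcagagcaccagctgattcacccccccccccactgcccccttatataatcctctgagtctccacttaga
Isg15, chr4:156200819-156201068, minus strand: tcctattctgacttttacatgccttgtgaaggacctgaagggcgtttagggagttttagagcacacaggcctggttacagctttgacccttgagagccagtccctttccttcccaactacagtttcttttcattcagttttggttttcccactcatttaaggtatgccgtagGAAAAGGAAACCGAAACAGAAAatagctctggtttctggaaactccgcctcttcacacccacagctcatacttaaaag
The first match begins at -104 in Ifit1, -156 in Ifit3 and -78 in Isg15, counted from the annotated start. A match is a description of letters and not of a bound site.

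The same windows were searched for the estrogen response element. The palindrome, searched as GGTCA, 3 free bases and TGACC, occurred in 3 of the 12672 genes (0.0237%), none of them among the 2082 called higher or the 2193 called lower. The single site AGGTCA on either strand occurred in 13.6% of all genes with a window, 14.2% of those called higher and 13.1% of those called lower, so neither called class held it at a share far from that of all genes. Windows this short leave out the distal sites at which the receptor is known to bind most often.

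Antigen presentation split by class. Of 17 tested genes of MHC class I presentation, 10 were called lower and 1 higher (0 higher without WT placebo 2, 2 without WT placebo 3). Of the 21 listed, 4 did not pass the filter on low counts, B2m among them, which was not read as absence. H2-K1, a classical class I heavy chain, was at 1162, 1014 and 996 CPM under E2 and 2164, 1562 and 2315 CPM under placebo. The difference for H2-K1 was -0.93 ± 0.20 (adjusted p = 0.000889). H2-D1 changed by -0.67 ± 0.19, H2-Q6 by -1.49 ± 0.32, H2-Q7 by -1.59 ± 0.32 and Psmb9, the immunoproteasome subunit, by -1.17 ± 0.26. The class I heavy chains are close paralogues, so reads may be split among them. Of 8 tested genes of class II presentation, 5 were called higher and 2 lower. Cd74, the invariant chain, was at 80.3, 50.4 and 46.3 CPM under E2 and 5.43, 6.61 and 5.64 CPM under placebo. H2-Ab1 was at 42.1, 22.5 and 21.6 CPM under E2 and 2.85, 5.26 and 3.51 CPM under placebo, H2-Aa rose by 3.42 ± 0.85 and H2-Eb1 by 3.19 ± 0.79. The accessory genes H2-DMa and H2-DMb1 changed the other way, by -0.88 ± 0.24 and -1.13 ± 0.27. WT E2 1 was highest for Cd74 and H2-Ab1 as for leukocyte markers, and both genes stayed above the placebo range in the other E2 libraries.

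**Figure D3:**
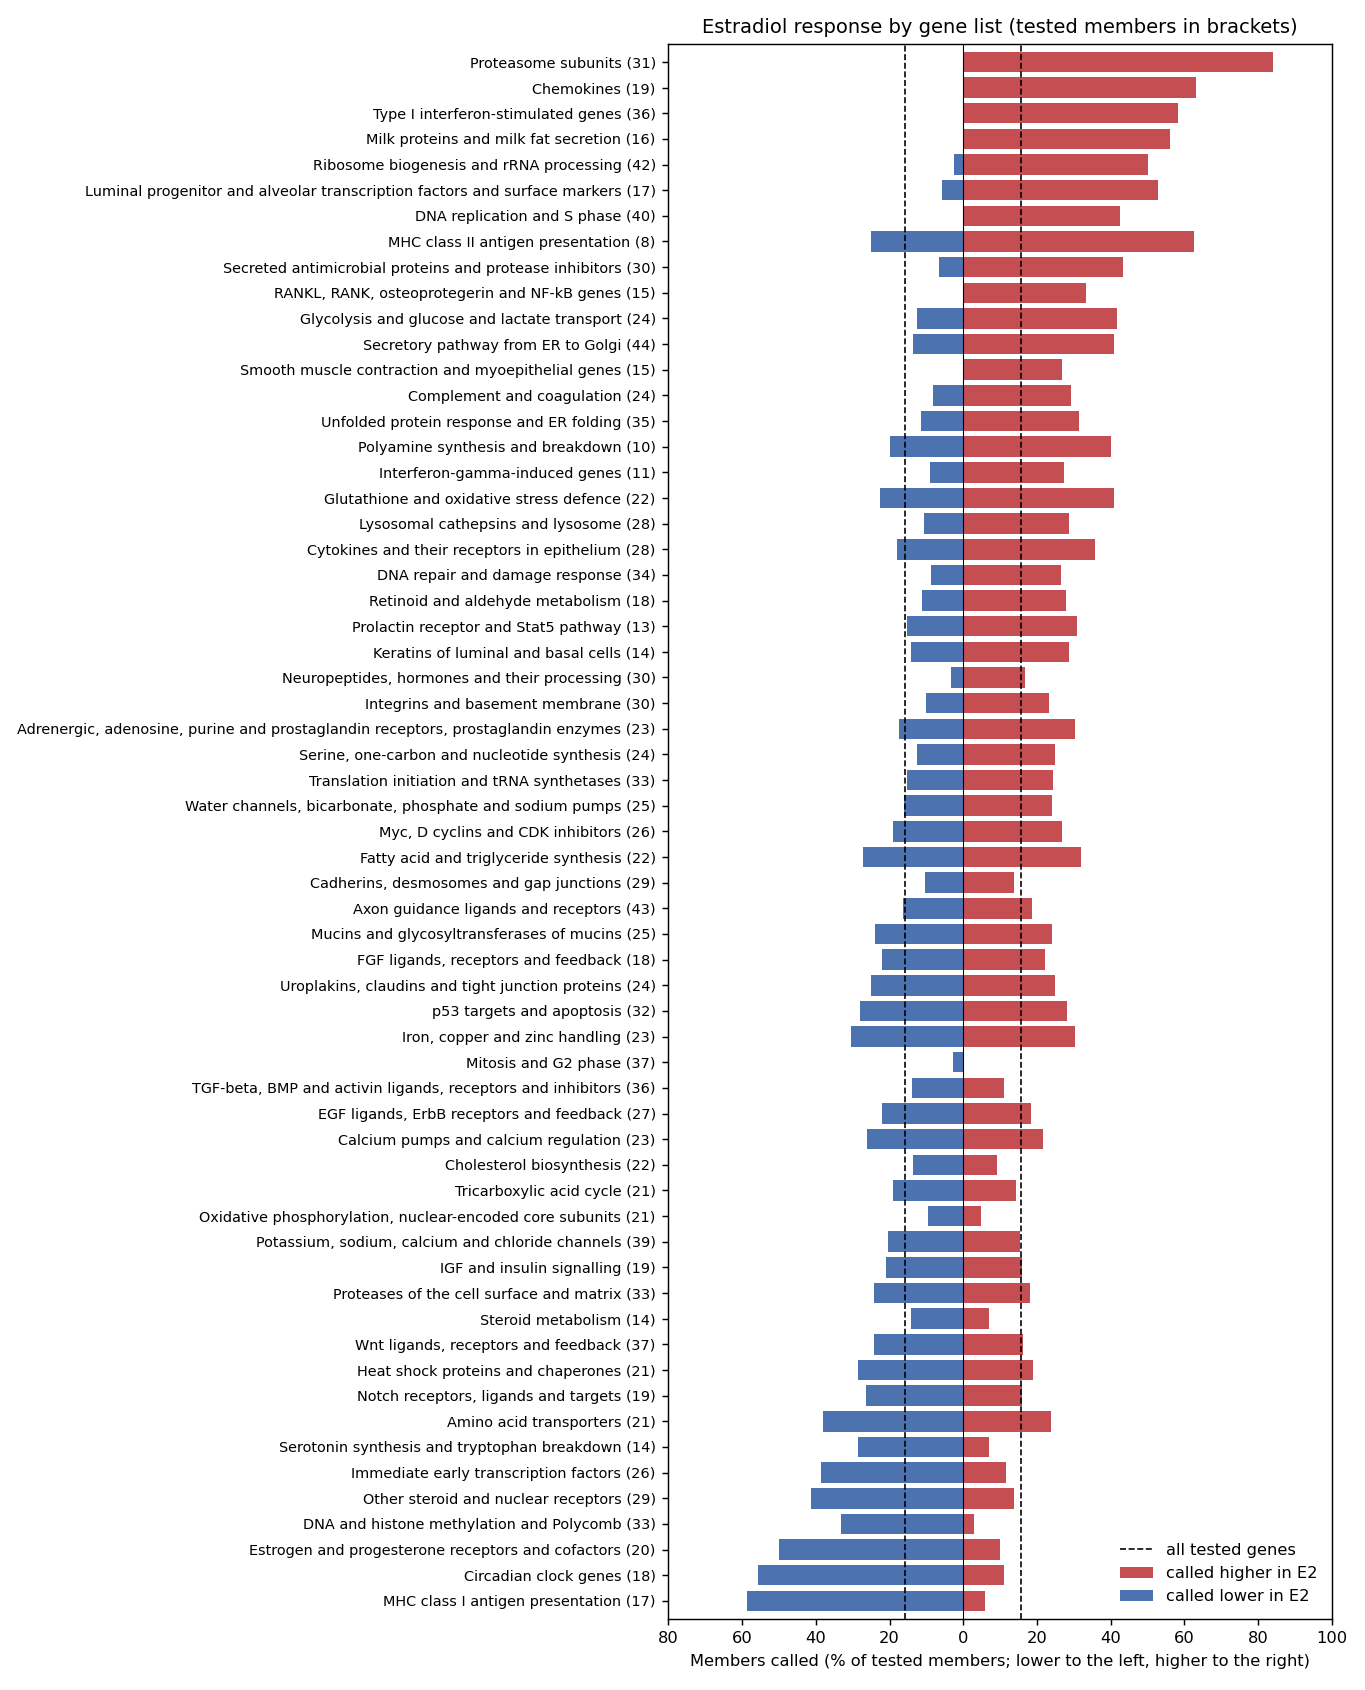
Share of each gene list called higher (right) and lower (left) in WT E2 against WT placebo, as percent of its tested members (number in brackets), with dashed lines at 15.6% and 15.9% for all tested genes. Proteasome subunits stand at the top with 26 of 31 higher, and MHC class I and circadian clock genes at the bottom with 10 of 17 and 10 of 18 lower.

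Of 39 ion channel genes, 6 (15.4%) were called higher and 8 (20.5%) lower, shares near those of all genes, and each single library but WT E2 1 and WT placebo 2, left out, brought the lower count to 5. Scnn1a, the alpha subunit of the epithelial sodium channel, was at 5.98, 33.6 and 41.5 CPM under E2 and 279.5, 211 and 312 CPM under placebo. Kcnma1, the large-conductance potassium channel, changed by -5.03 ± 0.72. Kcnn4, the intermediate-conductance calcium-activated potassium channel, was at 629, 340.4 and 513 CPM under E2 and 16.7, 11.5 and 27.1 CPM under placebo. Kcnk5 rose by 2.15 ± 0.42. Slc12a2, the basolateral sodium-potassium-chloride cotransporter of secretory epithelium, was at 769, 1336 and 2408 CPM under E2 and 18584, 10907 and 15269.5 CPM under placebo. Slc12a2 thus differed by -3.31 ± 0.49 on the log2 scale (adjusted p = 8.65e-06). Fxyd2, the gamma subunit that modulates the sodium pump, was at 2.32, 2.24 and 5.03 CPM under E2 and 419, 402 and 688 CPM under placebo. Fxyd3, of the same family, and Atp1b3, a pump subunit, rose by 1.505 ± 0.29 and 1.57 ± 0.21, and Aqp5, a water channel, changed by -1.41 ± 0.37.

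In calcium handling, Atp2c2, a Golgi pump known to activate ORAI1 in mammary cells, was at 4.52, 1.12 and 9.18 CPM under E2 and 190.1, 280.02 and 150.2 CPM under placebo. The plasma membrane pump gene Atp2b1 was at 383, 277 and 437 CPM under E2 and 64.3, 58.2 and 58.9 CPM under placebo. Orai1, the store-operated channel, rose by 1.38 ± 0.21, and Orai2 changed by -2.83 ± 0.43. Of 299 solute carrier genes, 45 were called higher and 73 lower. Among amino acid transporters 5 of 21 were called higher and 8 lower: the cationic carrier Slc7a2 was at 26.5, 39.2 and 66.1 CPM under E2 and 862, 579.98 and 929 CPM under placebo, while Slc1a4 and Slc43a2 rose by 1.93 ± 0.32 and 2.73 ± 0.51. Those counts fell to 3 higher without WT E2 3 or WT placebo 1 and to 5 lower without WT E2 2. Abcg2, the efflux transporter that secretes vitamins and drugs into milk, was at 53.9, 82.7 and 44.3 CPM under E2 and 5.93, 8.66 and 9.12 CPM under placebo, the single ABC transporter of 42 called higher, with 11 lower; 2 were called higher without WT E2 2 and 3 without WT placebo 2.

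Surface and junction genes changed in both directions. Of 24 uroplakin, claudin and tight junction genes, 6 were called higher and 6 lower. Upk2 changed by -2.47 ± 0.40, beside Upk3a. Cldn1 was at 310.1, 309.8 and 278 CPM under E2 and 28.7, 71.1 and 23.9 CPM under placebo, Cldn7 rose by 1.15 ± 0.14 and Ocln, occludin, by 1.25 ± 0.19, whereas Cldn10 was at 57.8, 107 and 91.5 CPM under E2 and 525, 449 and 498 CPM under placebo. Muc16 was at 0.0411, 0.0302 and 0.247 CPM under E2 and 86.1, 22.04 and 56.05 CPM under placebo. Muc16 had a log2 fold change of -8.92 ± 1.27 (adjusted p = 4.53e-06). Gcnt2 and St3gal4, glycosyltransferases, changed by -2.86 ± 0.28 and -4.59 ± 0.60. Cdh13, a cadherin anchored by a lipid tail, was at 7.99, 11.9 and 26.6 CPM under E2 and 495, 431 and 421 CPM under placebo. Epcam and the keratin gene Krt18 were at 3736, 3639.6 and 4379 CPM under E2 and 3448, 2626 and 3337 CPM under placebo for Epcam and 5596, 5903 and 7819 CPM under E2 and 5813, 4786 and 6152 CPM under placebo for Krt18 and were not called. Krt8 rose by 0.91 ± 0.21. Over all 46 tested keratins, 7 were called higher and 16 lower. Keratins called lower numbered 1 without WT placebo 2, 2 without WT E2 1 or WT E2 2 and 4 without WT E2 3, and those called higher 4 without WT E2 2, WT placebo 1 or WT placebo 3. Krt5, a basal keratin, changed by -5.84 ± 2.04 with WT placebo 2 and by -0.99 without it (adjusted p = 0.716).

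Genes of basement membrane and its receptors were called higher in 7 of 30 cases and lower in 3 (1 lower without WT placebo 3). Lamb3, a laminin 332 chain, was at 148, 199 and 288 CPM under E2 and 16.6, 21.6 and 25.3 CPM under placebo. As a log2 fold change, Lamb3 moved by 3.32 ± 0.33 (adjusted p = 3.3e-08). Itgb8, an integrin that activates TGF-beta, rose by 3.11 ± 0.70. Of 33 surface and matrix proteases, 6 were called higher and 8 lower (4 lower without WT E2 2, 5 without WT placebo 1 or WT placebo 3). Adam8 rose by 5.17 ± 0.73, Adam10 changed by -1.65 ± 0.22, and Tmprss2, an androgen-regulated membrane protease, was at 153, 225 and 239.5 CPM under E2 and 1853, 919 and 1652 CPM under placebo. Of 15 genes of smooth muscle contraction and myoepithelium, 4 were called higher and 0 lower, with a median log2 fold change of 0.02. The lower count was 2 at an unadjusted p under 0.05 in edgeR and 2 by DESeq2. Of the higher genes, Oxtr, the oxytocin receptor gene, and Cald1, caldesmon, rose by 2.53 ± 0.63 and 2.07 ± 0.48. Of 10 basal and myoepithelial markers, Oxtr among them, 2 were called higher and 1 lower. Trp63, which defines basal cells, was high in WT placebo 2 alone and was not called, at 3.45, 0.151 and 1.26 CPM under E2 and 0.209, 107 and 0.449 CPM under placebo. Basal markers summed to 238, 140 and 126 CPM in the E2 libraries and 59.0, 914 and 87.6 CPM in the placebo libraries, and their part in these results was not tested. The collagen VI gene Col6a1 was at 104, 4.29 and 2.78 CPM under E2 and 1.88, 1.58 and 2.89 CPM under placebo, raised in WT E2 1 alone. Its log2 fold change was 4.13 ± 0.88 with that library and 0.74 without it (adjusted p = 0.360).

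Among annexins, calcium-dependent membrane-binding proteins, 6 of 9 were called higher and 1 lower. Anxa3 was at 209, 335 and 314 CPM in the E2 libraries and 58.4, 51.3 and 59.3 CPM in the placebo libraries. Anxa3 thus differed by 2.34 ± 0.17 on the log2 scale (adjusted p = 2.03e-10). Tetraspanins were called higher in 4 and lower in 7 of 17 cases, with Tspan33 at 2.495 ± 0.32 and Tspan1 at 10.2, 29.4 and 46.7 CPM under E2 and 984, 648 and 912 CPM under placebo. Among kinesins, motors of microtubule transport, 10 of 35 were called lower and 0 higher with all libraries, also 0 higher at an unadjusted p under 0.05 in edgeR and 0 by DESeq2, and 10 lower and 7 higher without WT placebo 2. Kif5c, a motor of axonal transport, changed by -2.495 ± 0.46.

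Of 24 genes of glycolysis and of glucose and lactate transport, 10 were called higher and 3 lower. Eno1, enolase, was at 219.9, 266 and 261 CPM under E2 and 109, 100.8 and 113 CPM under placebo. Eno1 had a log2 fold change of 1.21 ± 0.13 (adjusted p = 9.51e-08). Ldha and Ldhb, lactate dehydrogenase subunits, rose by 0.97 ± 0.18 and 2.21 ± 0.43, and the lactate carriers Slc16a1 and Slc16a3 by 2.21 ± 0.31 and 3.90 ± 0.58. Slc2a3, a glucose transporter, was at 179.5, 20.4 and 29.2 CPM under E2 and 0.392, 1.76 and 0.225 CPM under placebo, highest in WT E2 1. Hk1, hexokinase 1, changed by -0.76 ± 0.19 with overlapping groups. In the tricarboxylic acid cycle 3 of 21 were called higher and 4 lower. Idh2, the mitochondrial NADP-dependent isocitrate dehydrogenase, was at 440.2, 441 and 379 CPM under E2 and 162, 158 and 179.8 CPM under placebo, and Sdha, a subunit of succinate dehydrogenase, at 404, 369 and 434 CPM under E2 and 655, 641 and 627 CPM under placebo. Nuclear-encoded core subunits of oxidative phosphorylation mostly did not pass, with 1 of 21 called higher and 2 lower. The higher count ran from 0 without WT E2 2 or WT placebo 1 to 5 without WT E2 3, and the lower count was 4 without WT E2 2.

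In lipid synthesis 7 of 22 genes were called higher and 6 lower. Dgat2, which makes triglyceride, was at 52.7, 54.1 and 76.9 CPM under E2 and 1442, 893 and 1202 CPM under placebo. The difference for Dgat2 was -4.27 ± 0.44 (adjusted p = 5.69e-08). Gpam, the first step of glycerolipid synthesis, and Srebf1, its transcription factor, changed by -2.37 ± 0.31 and -1.39 ± 0.23. The desaturase genes Fads1 and Fads2 rose by 1.91 ± 0.33 and 2.75 ± 0.40. Cholesterol synthesis genes were called higher in 2 and lower in 3 of 22 cases; the higher count was 4 without WT E2 1, 0 without WT E2 2, WT E2 3 or WT placebo 1 and 1 without WT placebo 3. Among them were Sc5d at -1.04 ± 0.15 and Fdft1, squalene synthase, at -1.07 ± 0.19. Among genes of retinoid and aldehyde metabolism 5 of 18 were called higher and 2 lower. Crabp2, a retinoic acid carrier, rose by 2.98 ± 0.42, and Dhrs3, a retinaldehyde reductase, was at 49.03, 42.2 and 51.1 CPM under E2 and 326, 209 and 249 CPM under placebo. Cyp1b1, which hydroxylates estradiol, was at 161, 23.7 and 42.6 CPM under E2 and 0.261, 3.35 and 0.589 CPM under placebo, highest in WT E2 1. Hsd17b4 changed by -0.94 ± 0.16.

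Of 10 polyamine genes, 4 were called higher and 2 lower; the lower count was 0 without WT E2 1 or WT placebo 3 and 1 without WT E2 2, WT E2 3 or WT placebo 1. Smox, spermine oxidase, was at 151, 148 and 189.9 CPM under E2 and 18.6, 23.01 and 12.99 CPM under placebo, Srm, spermidine synthase, rose by 0.82 ± 0.18 and Sat1, the acetyltransferase of polyamine breakdown, by 1.13 ± 0.25. Redox genes were called higher in 9 of 22 cases and lower in 5 (3 lower without WT E2 2, WT E2 3 or WT placebo 3). Gpx3, a secreted glutathione peroxidase, was at 11968, 9438 and 12706 CPM under E2 and 1587, 1377 and 1716 CPM under placebo. Gpx3 thus differed by 2.87 ± 0.42 on the log2 scale (adjusted p = 7.86e-06). Mgst1, a microsomal glutathione transferase, was at 1201, 2859 and 1372 CPM under E2 and 270.2, 295 and 210.5 CPM under placebo, and Prdx1 and Cat rose by 0.94 ± 0.13 and 0.88 ± 0.12. Gclc, the rate-limiting enzyme of glutathione synthesis, went down at 137, 146 and 289.9 CPM under E2 and 871, 1009 and 804 CPM under placebo. In metal handling the metallothionein gene Mt2 changed by -2.30 ± 0.40, the metalloreductase genes Steap1 and Steap2 by -2.08 ± 0.35 and -3.42 ± 0.44, and the zinc transporter genes Slc39a4 and Slc39a14 rose by 3.15 ± 0.46 and 2.01 ± 0.34.

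Proteasome subunits of the list were called higher in 26 of 31 cases and lower in 0, also 0 at an unadjusted p under 0.05 in edgeR and 0 by DESeq2, against 15.6% higher among all genes. The list left out the immunoproteasome subunit Psmb9, which changed by -1.17 as given above. In the wider family chosen by symbol, 26 of 36 tested genes were called higher and 2 lower. The list's mean level was 7.57, 7.88 and 7.56 log2 CPM in the E2 libraries and 7.18, 7.27 and 7.13 log2 CPM in the placebo libraries, without overlap. Psmd8, a lid subunit, was at 581, 578 and 515 CPM under E2 and 287, 263 and 275 CPM under placebo. Psmd8 had a log2 fold change of 1.02 ± 0.10 (adjusted p = 2.14e-08). Psma7, of the core ring, rose by 0.90 ± 0.13, Psmd6 by 0.62 ± 0.09 and Psmc6, a base ATPase, by 0.66 ± 0.11. WT E2 2 was the highest library, and 17 members were called without it. With the spread of the 6 libraries alone, 7 were called.

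Ribosome biogenesis genes were called higher in 21 of 42 cases (7 with the spread of the 6 libraries alone) and lower in 1. The lower count was 3 without WT E2 1 and 0 without WT E2 2, WT placebo 1 or WT placebo 3. Nob1, which cleaves the 18S rRNA precursor, was at 95.1, 80.8 and 75.8 CPM under E2 and 27.2, 45.7 and 29.4 CPM under placebo, Nop2, an rRNA methyltransferase, rose by 0.95 ± 0.16 and Gnl3, nucleostemin, by 1.28 ± 0.26. Of 73 mitochondrial ribosomal protein genes, 34 were called higher and 0 lower (20 and 1 without WT E2 2), with 0 lower at an unadjusted p under 0.05 in edgeR and 0 by DESeq2, as also for the small subunit list that follows. Of the cytosolic ribosomal proteins, 22 of 32 small subunit genes were called higher and 0 lower, and 11 of 46 large subunit genes were called higher and 1 lower. Without WT E2 2, 6 small and 5 large subunit genes were called higher; the small subunit count was also 11 without WT placebo 1 and 12 without WT placebo 3, and the large subunit count 7 without WT placebo 3. Cytosolic ribosomal protein genes have many processed copies and were counted at low levels here, for instance Rpl27 at 30.9, 31.4 and 24.3 CPM under E2 and 8.46, 13.97 and 10.6 CPM under placebo, so reads may be split between gene and copies. Initiation factors Eif6 and Eif4e rose by 1.14 ± 0.10 and 0.76 ± 0.12. Myc, a transcription factor that drives ribosome production, was at 507, 354 and 541.3 CPM under E2 and 152, 163 and 122 CPM under placebo. As a log2 fold change, Myc moved by 1.68 ± 0.30 (adjusted p = 0.000107). The tRNA synthetase gene Wars changed by -2.21 ± 0.38, with WT placebo 1 the highest library.

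Of 44 genes of the secretory route from endoplasmic reticulum to Golgi, 18 were called higher and 6 lower (9 and 3 with the spread of the 6 libraries alone). Ssr1 and Ssr2, subunits of the translocon-associated complex, rose by 0.99 ± 0.15 and 1.05 ± 0.13, Spcs3, of the signal peptidase, by 0.88 ± 0.16, and Kdelr3, a retrieval receptor, by 2.18 ± 0.34. Of 35 genes of the unfolded protein response and folding, 11 were called higher and 4 lower, but 5 higher without WT placebo 2 and 7 without WT E2 3. Hspa5, the chaperone BiP, was at 2258, 2981 and 3565 CPM under E2 and 1089, 1269 and 1146 CPM under placebo. Ero1l, an oxidase of disulfide formation, rose by 1.34 ± 0.17, whereas Herpud1 and Sel1l, of the degradation branch, changed by -1.73 ± 0.35 and -1.36 ± 0.20. Cytosolic heat shock genes were lower in 6 of 21 cases and higher in 4. Dnajb1, an HSP40 chaperone, was at 313, 423 and 294 CPM under E2 and 806, 745 and 877 CPM under placebo. Cryab, a small heat shock protein, was on the higher side, at 156, 278 and 209 CPM under E2 and 25.3, 16.6 and 27.4 CPM under placebo.

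Cell cycle results turned on WT placebo 2. Of 40 genes of DNA replication and S phase, 17 were called higher and 0 lower, with 0 lower at an unadjusted p under 0.05 in edgeR and 0 by DESeq2. That count was 29 without WT placebo 2, 8 without WT E2 1 or WT placebo 1, 6 without WT placebo 3 and 2 with the spread of the 6 libraries alone. Pole2, a polymerase epsilon subunit, was at 11.2, 12.1 and 8.97 CPM under E2 and 1.04, 2.91 and 1.68 CPM under placebo. Pole2 thus differed by 2.52 ± 0.48 on the log2 scale (adjusted p = 0.000176). Orc6, of the origin complex, rose by 1.38 ± 0.27 and Prim1, primase, by 1.74 ± 0.45. Of 37 genes of mitosis and G2, 0 were called higher and 1 lower in edgeR, with 5 higher at an unadjusted p under 0.05 and 2 by DESeq2. Without WT placebo 2, 31 of the 37 were called higher and 0 lower.

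The per-library values show this. The mean level of the mitosis list was 5.04, 4.14 and 3.69 log2 CPM in the E2 libraries and 0.77, 4.83 and 1.21 log2 CPM in the placebo libraries. Ccnb2, a mitotic cyclin, was at 96.98, 75.01 and 65.7 CPM under E2 and 1.70, 46.4 and 3.73 CPM under placebo. Its log2 fold change was 2.19 ± 0.87 with all libraries (adjusted p = 0.054) and 4.87 without WT placebo 2 (adjusted p = 0.000331). Cdk1, the mitotic kinase, was at 82.4, 50.7 and 21.04 CPM under E2 and 3.42, 38.4 and 2.47 CPM under placebo, and its difference was 4.12 without that library (adjusted p = 0.00214). For Cdk1, WT placebo 2 lay among the E2 libraries. For Ccnb2 it lay just below them, and the other placebo libraries lay far below for both genes. Summed basal markers, the fibroblast gene Dcn and the hair keratin gene Krt35 were also highest in that library, and their part in its mitotic level was not tested. Ccnd1, the G1 cyclin known as an E2 target in breast cancer cells, was at 372, 322 and 286 CPM under E2 and 326, 138 and 295 CPM under placebo and was not called (adjusted p = 0.359). Cdk6 rose by 1.58 ± 0.38, and Cdkn2d, an inhibitor of D-cyclin kinases, changed by -1.64 ± 0.29.

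**Figure D4:**
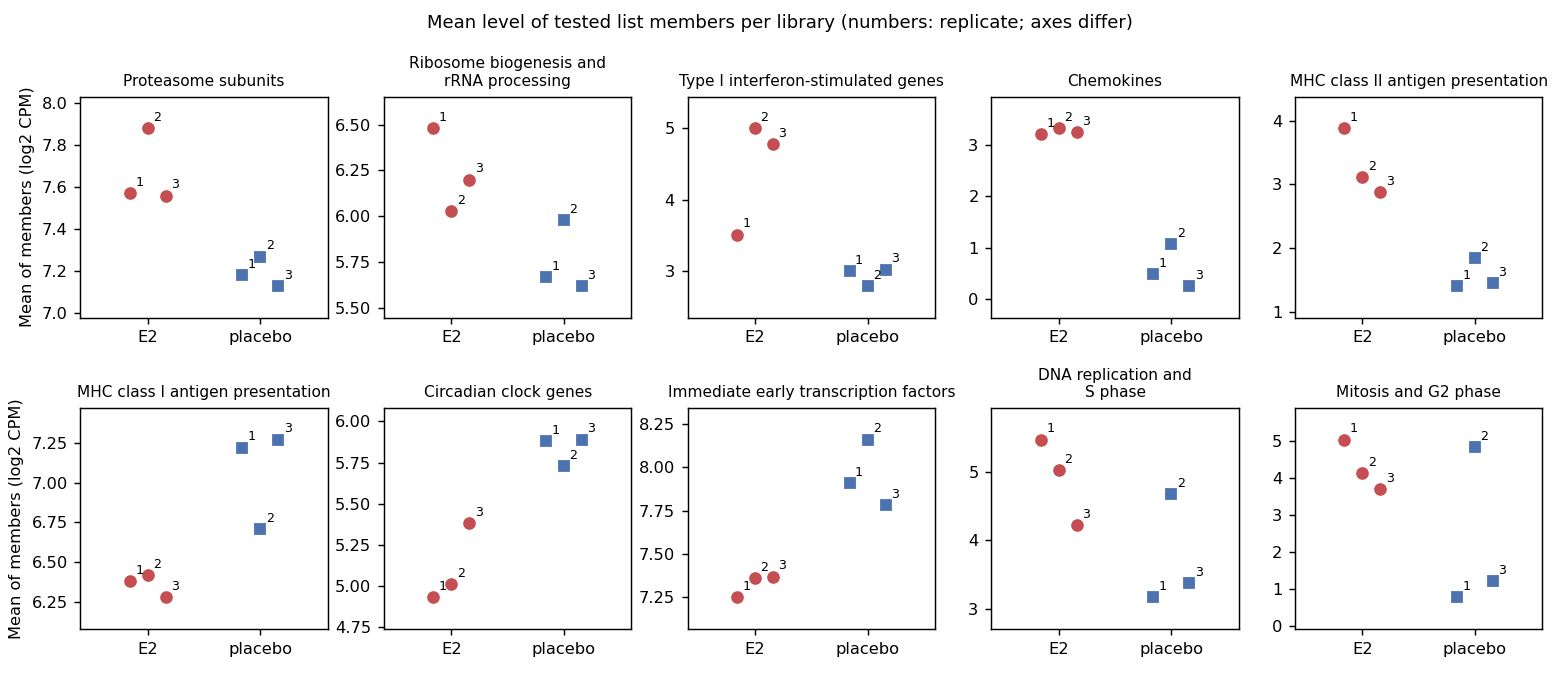
Mean level of the tested members of 10 gene lists in each library (log2 CPM, y axes differ), with WT E2 on the left and WT placebo on the right and library numbers beside the points. The groups do not overlap for proteasome, interferon, chemokine, MHC or clock genes, while WT placebo 2 reaches the E2 libraries for S phase and mitosis genes.

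Of 26 immediate early transcription factor genes tested, 10 (38.5%) were called lower, 3 higher and 13 not called. Fos was at 1079, 1374 and 891 CPM under E2 and 5892, 5259 and 5960.1 CPM under placebo, Atf3 at 729.8, 871 and 580.3 CPM under E2 and 5736, 4282 and 5727 CPM under placebo and Nr4a1 at 156, 177 and 142 CPM under E2 and 1897, 1481 and 2397 CPM under placebo. The groups did not overlap for these 3 genes, which were named for a small p or a high level, a choice that favours this. Over the list they did not overlap for 19 of 26 genes, against 7207 of all 18426 tested. Atf3 had a log2 fold change of -2.85 ± 0.34 (adjusted p = 4.7e-07). Klf4 changed by -1.57 ± 0.35. Fosl1 and Ier3 rose by 2.49 ± 0.40 and 1.38 ± 0.26, with Myc.

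Circadian clock genes were called lower in 10 of 18 cases and higher in 2 (1 higher when any one library other than WT E2 1 was left out). Cry2, a repressor of the clock, was at 30.6, 29.6 and 36.3 CPM under E2 and 297, 257 and 318 CPM under placebo. Nfil3 was at 83.005, 70.4 and 99.1 CPM under E2 and 374, 425 and 465 CPM under placebo. The output factors Tef and Dbp changed by -2.10 ± 0.29 and -2.86 ± 0.49, Per1, a repressor, by -1.43 ± 0.21, and Bhlhe40 by -1.45 ± 0.24. Groups did not overlap for these 6 genes, which were named for a small p or a high level, a choice that favours this. Over the list the groups did not overlap for 12 of 18 genes, against 7207 of all 18426 tested.

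Of 33 genes of DNA and histone methylation and Polycomb, 11 were called lower and 1 higher, but 5 in each direction without WT E2 2, and 0 higher when any one of the other 5 libraries was left out. With the spread of the 6 libraries alone, 4 were called lower and 0 higher. In that edgeR fit Smarca4 and Kmt2d, named below, were not called (adjusted p = 0.0637 and 0.0523). Hdac11, a histone deacetylase, was at 4.32, 4.53 and 4.24 CPM under E2 and 76.5, 51.3 and 74.1 CPM under placebo. The difference for Hdac11 was -3.95 ± 0.35 (adjusted p = 8.87e-09). Ezh1, a Polycomb methyltransferase, changed by -1.27 ± 0.24, Smarca4, the BRG1 remodeller, by -1.06 ± 0.20, and Kmt2d, an enhancer methyltransferase, by -1.27 ± 0.28. p53 and apoptosis genes were called higher in 9 and lower in 9 of 32 cases. Gadd45g and Gadd45a, stress sensors, changed by -3.12 ± 0.46 and -2.15 ± 0.36, Bmf, a killer protein of the BCL2 family, by -3.05 ± 0.59, and Casp4, an inflammatory caspase, rose by 2.52 ± 0.51. Of 34 DNA repair genes 9 were called higher and 3 lower, with 4 or 5 higher without WT E2 1, WT placebo 1 or WT placebo 3. Chek2 rose by 1.34 ± 0.33.

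The response was then set against that of cells with a mutant receptor, fitted in the same model with 3 E2 and 3 placebo libraries for D542G and for Y541S. The WT response differed from that of D542G cells for 1701 genes (9.23%) and from that of Y541S cells for 1478 genes (8.02%). The count for Y541S was 909 without WT placebo 3, 941 without Y541S E2 1, 982 without Y541S placebo 5 and 394 with the spread of the 12 libraries alone. Of the 2873 genes called higher in WT cells, the WT response lay above that of D542G for 647 and below it for 22, and above that of Y541S for 671 and below it for 0. Of the 2923 called lower in WT cells, it lay below that of D542G for 648 and above it for 3, and below that of Y541S for 682 and above it for 0. The WT libraries enter both the choice of these genes and the difference, so the direction of the counts is not independent of the call.

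Esr1 fell by 4.82 on the log2 scale in WT cells, and changed by -0.97 ± 0.34 in D542G and by -0.30 ± 0.33 in Y541S cells. In D542G cells Esr1 averaged 87.6 ± 14.5 CPM under E2 and 171 ± 25.9 CPM under placebo, and in Y541S cells 66.7 ± 5.71 CPM under E2 and 82.1 ± 25.1 CPM under placebo (SD, n = 3 each). For Pgr the responses had opposite signs, with -1.46 ± 0.37 in WT and 0.79 ± 0.36 in D542G cells (adjusted p = 0.145), a difference of -2.25 ± 0.52 (adjusted p = 0.00542). Elf5 rose by 2.495 ± 0.46 in WT cells, against 0.31 ± 0.44 in D542G and 0.00 ± 0.44 in Y541S cells, and both differences passed (adjusted p = 0.0246 and 0.0126). The starting levels were unlike: under placebo Elf5 averaged 10.4 ± 2.45 CPM in WT, 22.1 ± 1.23 CPM in D542G and 39.1 ± 26.6 CPM in Y541S cells (SD).

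Penk and Slpi rose in D542G cells as in WT cells. Penk changed by 8.47 ± 1.19 in D542G cells, and the WT response minus that one was 1.35 ± 1.36 (adjusted p = 0.631). In Y541S cells Penk averaged 1547 ± 859 CPM under E2 and 869.5 ± 380.0 CPM under placebo (SD, n = 3 each), a change of 0.83 ± 0.86, and the WT response exceeded it by 8.99 ± 1.46 (adjusted p = 0.000262). The response of Greb1 was 2.68 ± 0.54 in WT, 3.04 ± 0.55 in D542G and -0.27 ± 0.48 in Y541S cells. Under placebo Greb1 averaged 29.1 ± 14.2 CPM in Y541S cells and 1.38 ± 0.73 CPM in WT cells (SD). Wnt4 changed by -4.29 ± 0.62 in WT, -3.68 ± 0.60 in D542G and -1.48 ± 0.56 in Y541S cells. Under placebo Wnt4 averaged 399 CPM in WT, 249 CPM in D542G and 77.1 CPM in Y541S cells. Upk3a averaged 613, 157 and 56.6 CPM under placebo in the same order. Slpi averaged 1259 ± 573 CPM under E2 and 492 ± 259.9 CPM under placebo in Y541S cells, so Penk, Slpi and Greb1 were high in those cells without E2.

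**Figure D5:**
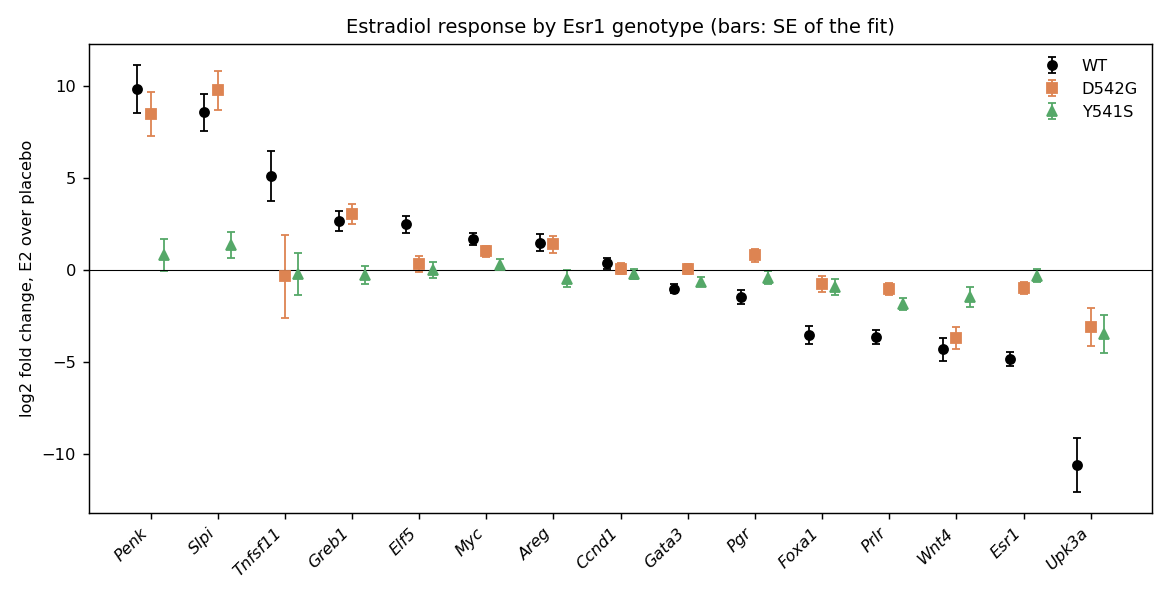
Log2 fold change of E2 over placebo for 15 genes in WT (circles), D542G (squares) and Y541S (triangles) cells, with bars for the SE of the fit. Penk, Slpi and Greb1 are called higher in WT and D542G and not called in Y541S, and the falls of Esr1, Foxa1 and Upk3a are largest in WT. The placebo levels of these genes differ between the genotypes.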

How the data were processed

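RNA of mature luminal cells was sequenced in 37 libraries of 12 groups, of which the 3 WT E2 and 3 WT placebo libraries carry the results; group and number came from each title. The authors deposited, per library, whole-number counts for 52636 genes and RPKM values; the counts were tested and the RPKM were not used. The build was GRCm38, per the submitters' processing notes; aligner, counting tool and strand use: not given in the sources used here. Identifiers of 52489 genes had a symbol in GENCODE M21; those without one (147) took no more than 0.007% of any library.

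Genes were tested with edgeR 4.0.16 (R 4.3.3) on all 37 libraries with a coefficient for each group, after filterByExpr, with TMM scaling (0.94 to 1.1 in the 6 libraries) and the quasi-likelihood functions glmQLFit (robust) and glmQLFTest; 18426 genes were tested with 25 residual degrees of freedom. The SE was computed as the absolute log2 fold change divided by the root of the F statistic, p-values were adjusted by Benjamini-Hochberg over all tested genes at 0.05, and the mutant comparisons are differences of responses. Levels are CPM scaled by TMM factors; mean list levels use log2 CPM with a prior count of 2. Of 1264 protein-coding genes lying wholly within other genes, 1129 (89.3%) had 0 counts throughout, against 2330 of 12082 (19.3%) that overlap none, so 0 was not read as absence. Libraries of a group differed beyond sampling noise, with chi-square per degree of freedom of 32.56 to 263.5. Counts of 33.46 M to 47.22 M per library limit precision mainly for genes of a few CPM. The scripts were tested on simulated data.

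The groups, the 61 gene lists (1592 genes) and the 56 families chosen by symbol were set with earlier results of these data known. Genes named in the text come from among the 15 largest rises and 15 largest falls with a mean of at least 2 log2 CPM and no overlap, the 10 smallest p, up to 6 members with the smallest p and the 2 most abundant of each list, the 2 largest called rises and falls of each family, and a panel of 15 genes; not all of these are named. Marker lists of 10 cell types were summed per library. Promoter windows of 250 bases came from RefSeq on GRCm38.p6. Alternatives were RLE factors, no factors, no filter, DESeq2 1.42.0, a fit of the compared groups only, a replicate block, and each library left out. Same-numbered E2 and placebo libraries did not deviate together, so the numbers were not taken as pairs. Results for a few genes are not reported here.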

Additional observations from a re-analysis of the deposited data

Results flagged for a closer look

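The E2 response of WT cells differed from that of mutant cells, by a test of the difference itself, for 1701 genes against D542G and 1478 against Y541S. Of the panel, Elf5, the alveolar fate factor, had a response that was higher in WT cells by 2.19 against D542G and by 2.49 against Y541S on the log2 scale. Esr1 was lower in its WT response, with differences of -3.86 against D542G and -4.53 against Y541S. Foxa1 differed by -2.78 against D542G and -2.61 against Y541S. Prlr, the prolactin receptor gene, differed by -2.62 against D542G and -1.80 against Y541S, and Upk3a by -7.49 and -7.10 in the same order. Pgr differed against D542G, by -2.25. Against Y541S, the WT response was higher by 8.99 for Penk, by 7.22 for Slpi, by 2.95 for Greb1 and by 1.39 for Myc, and lower for Wnt4, with -2.82. Under placebo, Penk, Slpi and Greb1 were already higher, and Wnt4 lower, in Y541S than in WT cells. Placebo levels of other panel genes differed as well. In the order WT, D542G and Y541S, Elf5 averaged 10.4, 22.1 and 39.1 CPM, Foxa1 699, 394 and 199 CPM and Prlr 1741, 2165 and 681 CPM. The groups have 3 libraries each, too few for the test of a single outlying value used on larger groups.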

How the results depend on the processing

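Genes called higher and lower were 2839 and 2991 with RLE factors, 2873 and 2765 without scaling factors, 2514 and 2504 without the filter on low counts, 3205 and 3355 by DESeq2, and 1450 and 1689 in a fit of the 6 libraries alone, which has fewer libraries behind its estimate of spread. Leaving out 1 library gave 2067 to 2772 higher and 2256 to 2791 lower, and no gene was called with the opposite sign. For the difference from D542G, leaving out 1 library gave 1159 to 1873 genes. For that from Y541S it gave 909 to 1639, and the fit of the groups compared gave 394. DESeq2 called 2407 genes against D542G and 2175 against Y541S. The numbers in the titles did not pair the libraries (r of -0.093, -0.032 and 0.027 between same-numbered libraries over genes); with the replicate block, 2877 genes were called higher and 2965 lower, 1788 against D542G and 1094 against Y541S. Of the 543 named genes called, 28 were not called without the filter on low counts and, of the 525 tested in the 6-library fit, 119 were not called there. Of the 122 counts of list members called in a direction, 44 moved by over 1.5 times in the 6-library fit, against 12 or fewer with DESeq2, other scaling, no filter or the replicate block. Leaving out 1 library moved from 11 (without WT E2 1) to 28 (without WT placebo 3) of these counts. Of the named calls, 75 were lost without WT placebo 3, the most for any 1 library. With 1 library left out, Tnfsf11 ran from -0.33 (without WT E2 1) to 5.68. Of 4 genes with counts in a single one of the 6 libraries, Mmp10 ran from 0.00 (without WT E2 3) to 6.54, Myh13 and Slc6a2 from 0.00 (without WT E2 1) to 7.84, and Slc24a4 from -8.45 to 0.00 (without WT placebo 2). The median log2 fold change over all genes stayed between -0.002 (without WT E2 1) and 0.090 (without WT placebo 2).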

Other observations

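Axon guidance genes, whose ligands and receptors also act between epithelial cells, were called higher in 8 (18.6%) and lower in 7 (16.3%) of 43 cases, with 4 lower without WT E2 2. These shares were near those of all genes, 15.6% and 15.9%. Sema4c, a transmembrane semaphorin, was at 53.9, 48.6 and 46.2 CPM under E2 and 374, 314 and 394 CPM under placebo. Nrp1, a co-receptor for semaphorins and vascular growth factors, was at 3.45, 0.544 and 5.27 CPM under E2 and 127, 126 and 77.5 CPM under placebo, and Robo1, a receptor of SLIT ligands, changed by -3.12 ± 0.44. Sema3c, a secreted semaphorin, rose by 2.79 ± 0.47, and the receptor gene Ephb2 by 2.90 ± 0.70. The E2 and placebo libraries did not overlap for these named genes. They were named for a small p or a large change, so that is no result about the pathway.

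Lysosomal genes were called higher in 8 and lower in 3 of 28 cases, with 5 higher without WT placebo 2. Ctsh, a cysteine protease, was at 758, 1238 and 727 CPM under E2 and 257, 189 and 245 CPM under placebo. Ctsl, another cathepsin, rose by 1.38 ± 0.25, and Tfeb, the factor that switches on lysosomal genes, by 0.90 ± 0.21. Of 19 tubulin genes, 8 were called higher and 5 lower; 5 were higher without WT E2 1, WT placebo 1 or WT placebo 3, and 2 lower without WT E2 1 and 3 without WT placebo 1. Tubb2b and Tubb6, beta-tubulins, rose by 2.16 ± 0.41 and 2.05 ± 0.41, and Tuba8 changed by -1.69 ± 0.35. Hist2h2be, a polyadenylated histone gene, changed by -4.05 ± 0.67. Dusp14, a dual-specificity phosphatase gene, rose by 2.64 ± 0.31.

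Schwann cell and nerve markers summed to 252, 186 and 263 CPM in the E2 libraries and 40.9, 17.8 and 26.6 CPM in the placebo libraries, with 1 of 4 called, namely Sox10, which luminal progenitors also express. Erythroid markers summed to 366, 386 and 263 CPM in the E2 libraries and 28.0, 72.1 and 72.3 CPM in the placebo libraries, with 2 of 4 tested called higher.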
